A study of Mus musculus with 30 samples.

Results

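The genes described here are 9 members of the mouse Notch pathway: the ligand genes Dll1 and Jag1, the receptor genes Notch1, Notch2 and Notch3, and the transcriptional repressor genes Hes1, Hes6, Hey1 and Heyl. They were chosen by symbol, and all 9 were found among the 57186 gene rows of the deposited count table, with 1 row each. The table holds RNA sequencing libraries of NIH/3T3, an established line of mouse fibroblasts grown in serum, and of CGR8, a line of mouse embryonic stem cells grown in N2B27 with 2i and LIF. Both lines carry a ROSA26 SLT knock-in, per the genotype label. Cells received cycloheximide, an inhibitor of translation elongation, at 0.1 µg/mL for 0, 1, 2, 5 or 48 h, with 3 replicates (A, B and C) for each line and time. These are 30 libraries in 10 groups. The 0 h libraries carry the same treatment label as the rest and are the only reference in each line, since no vehicle group was analysed here.

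Notch receptors are cleaved when they bind a ligand on a neighbouring cell, and the freed intracellular domain joins the DNA-binding protein RBPJ to activate target genes. Hes1, Hey1 and Heyl are classic targets and encode basic helix-loop-helix repressors, while Hes6 encodes a family member known to oppose HES1. HES1 represses its own gene, and both its RNA and its protein turn over quickly, so that Hes1 RNA oscillates in fibroblasts after a serum pulse and in embryonic stem cells. Block of translation is known to raise the RNA of many such short-lived, self-limiting genes, and the comparisons below ask how the RNA of each Notch gene moved with time in cycloheximide and whether the 2 lines differed.

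Totals ranged from 18.2 to 30.5 M counts per library. Levels are given as CPM (counts of a gene per M counts of its library) after trimmed-mean (TMM) scaling, as mean ± SD with n = 3. A fold change is the log2 difference ± SE of the edgeR quasi-likelihood test, and a gene is said to have risen, fallen or been called where the Benjamini-Hochberg adjusted p over all genes tested was under 0.05. Nothing in the labels says that the replicates came from separate cultures, so p-values measure the spread between these libraries only. The lines expressed their defining markers: Col1a1 lay between 1592 and 5016 CPM in NIH/3T3 and Pou5f1 between 581 and 1196 CPM in CGR8. Of the 6 fibroblast markers, Thy1 was at under 0.1 CPM in every NIH/3T3 library and Postn between 0.357 and 1.01 CPM. Libraries also differed in how long and short genes read: in NIH/3T3 1 h C the median deviation from the group mean was 0.50 lower on the log2 scale for genes of at least 8000 exonic bases than for those of at most 2000, an offset of -0.50, and in CGR8 5 h A it was -0.40. Notch1 (14232 exonic bases in GENCODE M21), Notch2 (10782) and Notch3 (8089) are long, Jag1 (5827) is intermediate, and Hes1 (2037) and Hes6 (1808) are short, so results for the receptors are given as deposited and with the length trend of each library removed, an alternative chosen after seeing the data.

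The RefSeq promoter table (GRCm38.p6) held an entry for 6 of the 9 genes, with 2 start sites each for Hes6 and Dll1. The 4 promoters printed here are those of Jag1, Notch1, Notch2 and Notch3, shown because the RNA of these 4 genes fell together in CGR8 at 2 and 5 h. Each run is the 250 bases before the start site, 5′ to 3′ on the strand of the gene, and capitals mark matches on either strand to the N box (CACNAG) or the class C site (CACGCG), which are bound by HES and HEY repressors.
Jag1: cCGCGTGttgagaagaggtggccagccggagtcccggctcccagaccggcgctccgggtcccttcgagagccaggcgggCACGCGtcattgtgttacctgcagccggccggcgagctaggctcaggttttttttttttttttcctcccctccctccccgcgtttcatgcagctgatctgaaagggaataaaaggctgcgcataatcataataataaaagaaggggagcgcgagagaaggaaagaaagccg
Notch1: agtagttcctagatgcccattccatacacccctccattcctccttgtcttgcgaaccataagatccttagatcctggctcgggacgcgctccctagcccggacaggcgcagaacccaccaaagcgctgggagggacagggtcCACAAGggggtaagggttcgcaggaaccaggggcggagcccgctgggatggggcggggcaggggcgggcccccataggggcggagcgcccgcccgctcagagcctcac
Notch2: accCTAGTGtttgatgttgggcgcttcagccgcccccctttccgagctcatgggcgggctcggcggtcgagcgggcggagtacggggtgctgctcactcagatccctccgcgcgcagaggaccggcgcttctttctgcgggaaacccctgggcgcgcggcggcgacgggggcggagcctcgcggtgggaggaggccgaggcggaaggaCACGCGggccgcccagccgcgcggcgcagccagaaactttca
Notch3: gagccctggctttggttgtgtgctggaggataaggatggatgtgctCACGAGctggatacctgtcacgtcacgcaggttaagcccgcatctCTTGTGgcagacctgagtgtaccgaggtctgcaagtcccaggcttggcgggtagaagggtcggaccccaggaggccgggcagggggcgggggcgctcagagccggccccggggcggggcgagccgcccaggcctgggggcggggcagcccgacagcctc
They lie at chr2:137116521-137116770 on the minus strand for Jag1, chr2:26503823-26504072 on the minus strand for Notch1, chr3:98013288-98013537 on the plus strand for Notch2 and chr17:32166891-32167140 on the minus strand for Notch3. Notch1 had 1 N box and Notch3 had 2, Jag1 had 2 class C sites, and Notch2 had 1 of each. The RBPJ core (TGGGAA) and the E box (CACGTG) were searched for too and had no match in these 4 windows. No 2 of the marked matches overlapped. Among the promoters not printed, 1 of the 2 start sites of Hes6 had an N box. For Dll1, 1 of the 2 start sites had a class C site. Neither gene fell in CGR8 at 2 or 5 h: Dll1 was called higher at 5 h, and Hes6 was not called. Of 32851 promoters in the table, 36.67% held an N box, 7.62% a class C site, 21.59% the RBPJ core and 6.02% the E box in the same window. These matches are letters in a sequence and do not show that a factor was bound.

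At 0 h the 2 lines expressed different members of the pathway. NIH/3T3 cells had Jag1, Notch1, Notch2, Hes1 and Hes6 RNA and next to none of Dll1, Notch3, Hey1 and Heyl, while CGR8 cells had all except Heyl. On a per-length scale (CPM per kb of exon), NIH/3T3 was led by Hes6 (7.08 ± 0.632), Notch2 (6.98 ± 0.435) and Jag1 (6.37 ± 0.543), whose ranges overlapped from each to the next, followed without overlap by Hes1 (5.44 ± 0.498) and Notch1 (1.42 ± 0.175). CGR8 was led by Hes1 (14.2 ± 1.59 CPM per kb), then Jag1 (5.47 ± 0.327). Next came Notch2 (3.36 ± 0.139) and Hes6 (3.33 ± 0.229 CPM per kb), which overlapped. Lower still, with no overlap between neighbours, were Notch1 (2.99 ± 0.154), Notch3 (1.42 ± 0.0936), Hey1 (0.353 ± 0.0431) and Dll1 (0.103 ± 0.0205 CPM per kb). In these bulk samples fewer cells expressing a gene and less RNA per cell cannot be told apart.

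Between the lines at 0 h, 7 of the 8 members tested were called, against 79.1% of all genes tested. Of the 5 genes present in both lines, Hes1 was higher in CGR8 (log2 difference 1.34 ± 0.18, adjusted p = 1.4e-07), as was Notch1 (1.04 ± 0.23, adjusted p = 2.1e-04). Notch2 was lower in CGR8 (-1.10 ± 0.19, adjusted p = 8.8e-06), and so was Hes6 (-1.13 ± 0.16, adjusted p = 2.2e-07). The Jag1 difference was -0.27 ± 0.15 (adjusted p = 0.11), with an interval of 2 SE from -0.57 to 0.04. Dll1, Notch3 and Hey1 passed the filter only through CGR8 and so had to differ. Notch3 had 921 counts over the 3 CGR8 libraries at 0 h and 1 count in NIH/3T3, a ratio of 867 with a counting interval from 155 to 34280. Hey1 had 93 counts against 2, a ratio of 43.8 with an interval from 11.8 to 367. Dll1 had 34 counts against 0, so that it was at least 10.7-fold higher in CGR8, taking a floor of 3 counts over the group. Intervals and floors cover counting error only. Heyl had at most 3 counts in any of the 30 libraries, passed no filter and was not tested.

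Over the time course, no member was called at 1 h in CGR8, and 6 of 8 were called there at 5 h. Of the genes called at both 5 and 48 h, Jag1 and Hes6 in NIH/3T3 and Dll1 and Hes1 in CGR8 kept their direction, while Jag1 and Notch3 in CGR8 went from below their 0 h level to above it. In NIH/3T3, 5 members were tested. There 2 were called at 1 h (against 0.732% of all genes), 4 at 2 h (against 35.0%), 2 at 5 h (against 51.0%) and 4 at 48 h (against 52.3%). Of the 8 members tested in CGR8, edgeR called 0 at 1 h (against 0.27% of all genes), and 0 had an unadjusted p under 0.05 and 0 were called by DESeq2. In this line 4 were called at 2 h (19.9% of all genes), 6 at 5 h (52.1%) and 5 at 48 h (27.8%). The calls at 1 h in NIH/3T3 are those of Jag1 and Hes1, and both were lost with the 2 groups fitted alone. With 5 and 8 genes tested, these shares are read gene by gene below.

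The ligand gene Jag1, which encodes Jagged1, rose in NIH/3T3 and fell in CGR8 over the first hours, and was higher than at 0 h in both lines at 48 h. In NIH/3T3 the 3 libraries stood at 36.9, 40.4 and 34.1 CPM at 0 h and at 63.8, 68.5 and 41.2 CPM at 1 h. They reached 73.2, 68.7 and 62.8 CPM at 2 h, 52.9, 50.2 and 54.4 CPM at 5 h and 62.9, 66.7 and 61.6 CPM at 48 h. All libraries from 1 h on lay above all 3 at 0 h, although 1 h C was close to the highest of them. Jag1 was higher by 0.88 ± 0.14 (adjusted p = 3.3e-04) at 2 h. At 5 h the difference was 0.50 ± 0.14 (adjusted p = 0.0069), and at 48 h it was 0.78 ± 0.14 (adjusted p = 2.2e-04). The call at 1 h (0.64 ± 0.14, adjusted p = 0.039) was lost under 6 of 15 alternatives: library size alone, the 2 groups fitted alone, and without 0 h A (adjusted p = 0.19), 0 h C (0.24), 1 h A (0.14) or 1 h B (0.18). 

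Levels of Jag1 in CGR8 were 32.5, 29.7 and 33.4 CPM at 0 h and 32.4, 31.4 and 30.2 CPM at 1 h. They dropped to 13.6, 19.0 and 14.9 CPM at 2 h and 14.0, 19.98 and 22.7 CPM at 5 h and stood at 46.6, 51.3 and 58.3 CPM at 48 h. The 2 h and 5 h libraries lay below all at 0 h and the 48 h libraries above them. Jag1 fell at 2 h (-1.0035 ± 0.16, adjusted p = 7.5e-04, 2.01-fold lower) and was still lower at 5 h (-0.75 ± 0.16, adjusted p = 9.9e-04). It rose from 5 h to 48 h by 1.46 ± 0.16 (adjusted p = 2.3e-06), where 6 of 8 members were called, against 57.5% of all genes tested. At 48 h it was 0.71 ± 0.16 (adjusted p = 0.0030) above 0 h. The change in CGR8 minus that in NIH/3T3 was -1.83 ± 0.22 (adjusted p = 1.9e-06) at 2 h and -1.16 ± 0.22 (adjusted p = 4.5e-04) at 5 h. For this line difference 2 of 8 members tested were called at 2 h, against 2.02% of all genes, and 4 of 8 at 5 h, against 13.3%. Dll1, Notch3 and Hey1, with next to no counts in NIH/3T3, were among the 8 but gave no fold for this difference. At 48 h the Jag1 difference between the lines was -0.09 ± 0.21 (adjusted p = 0.87), with an interval of 2 SE from -0.51 to 0.33.

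Dll1, which encodes the ligand Delta-like 1, was the member with the largest fold change in CGR8. Its counts were 11, 13 and 10 at 0 h and 10, 9 and 15 at 1 h, and became 20, 23 and 18 at 2 h, 24, 28 and 35 at 5 h and 83, 141 and 125 at 48 h. Mean levels were 0.432 ± 0.0866 CPM at 0 h, 1.27 ± 0.175 CPM at 5 h and 4.49 ± 1.25 CPM at 48 h. All libraries at 2, 5 and 48 h lay above those at 0 h, and 48 h A was the lowest of its group. Dll1 rose at 5 h (1.56 ± 0.30, adjusted p = 4.2e-04) and at 48 h (3.37 ± 0.26, adjusted p = 3.9e-07, 10.4-fold higher). Its difference at 2 h was 0.86 ± 0.31 (adjusted p = 0.061). From 5 h to 48 h it rose again (1.82 ± 0.23, adjusted p = 9.2e-06). Dll1 passed the low-count filter through its later times, so its rise was partly a condition of being tested. All 15 NIH/3T3 libraries had 0 Dll1 counts, and at 48 h the gene was at least 97.8-fold higher in CGR8 by the same floor. In GENCODE M21, 867 exonic bases of Dll1 are shared with A930024N18Rik on the opposite strand, and whether the counting used strand is not given in the sources used here.

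**Figure D1:**
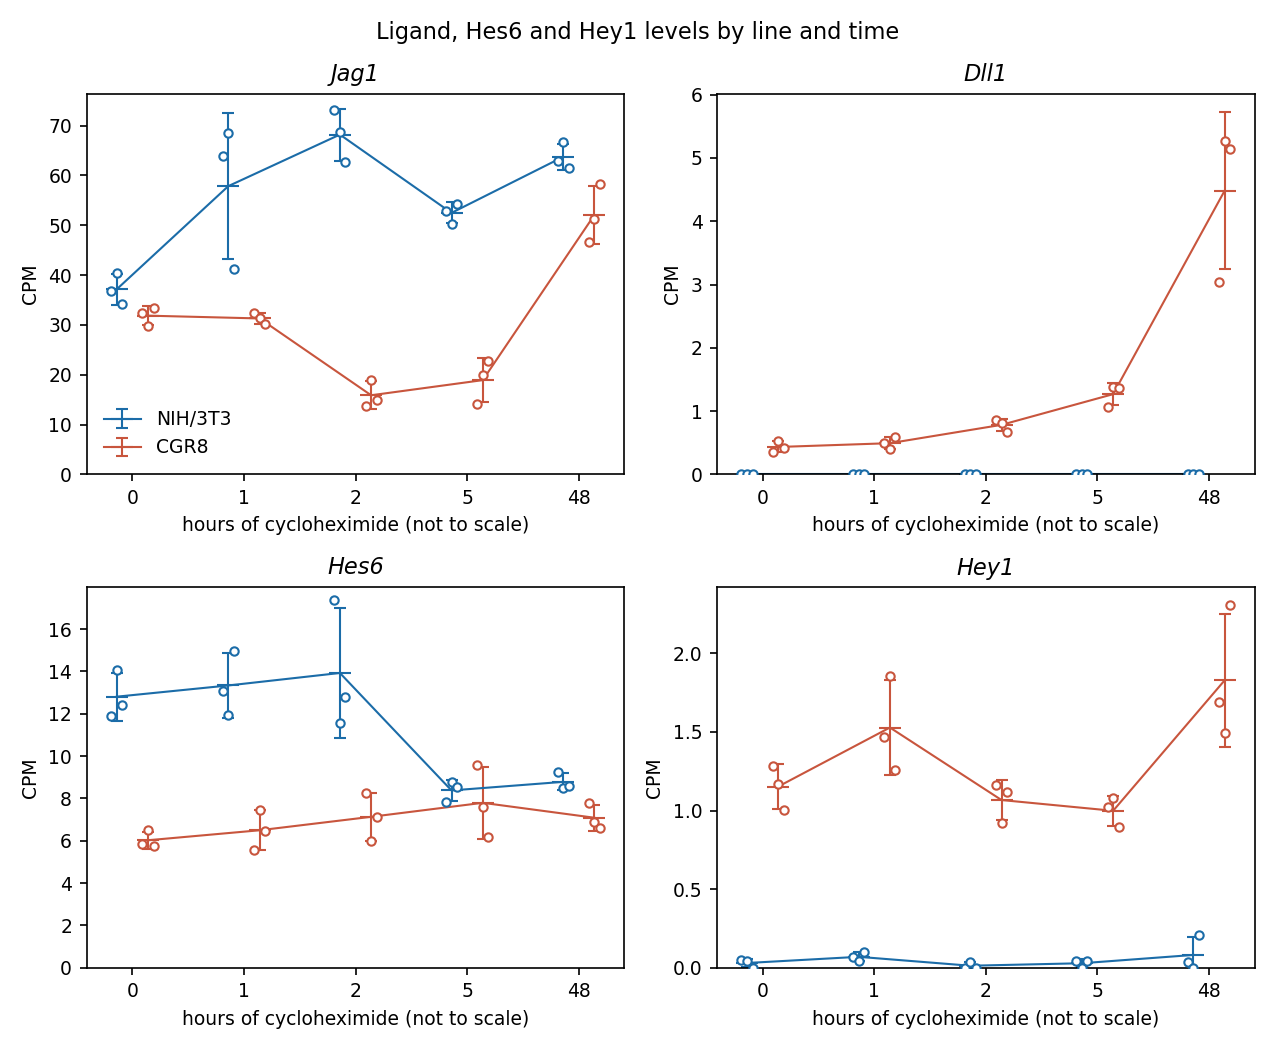
Levels of Jag1, Dll1, Hes6 and Hey1 in CPM (vertical axes, from 0) against hours of cycloheximide (horizontal axes, not to scale) in NIH/3T3 (blue) and CGR8 (red). Open circles are libraries, dashes and bars are mean ± SD (n = 3). Jag1 runs apart in the lines at 2 and 5 h, and the CGR8 Dll1 libraries at 48 h sit between 3.05 and 5.26 CPM with NIH/3T3 at 0.

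The receptor genes Notch1, Notch2 and Notch3 fell together in CGR8 by 5 h, and all 3 rose between 5 and 48 h. In NIH/3T3 Notch1 and Notch2 were lower at 2 h and above their 0 h level at 48 h, while Notch3 had 3 counts in all 15 libraries together. The receptors are single-pass membrane proteins whose cleaved tail carries the signal.

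Notch1 in CGR8 was at 45.0, 42.1 and 40.7 CPM at 0 h and 46.1, 36.7 and 37.4 CPM at 1 h. At 2 h it was at 16.7, 22.7 and 15.9 CPM, at 5 h at 11.4, 21.7 and 23.8 CPM and at 48 h at 59.1, 45.0 and 52.9 CPM. All 2 h and 5 h libraries were below all 0 h libraries, 5 h A by the most, and all 48 h libraries were above them, 48 h B only just. Notch1 fell at 2 h (-1.21 ± 0.21, adjusted p = 0.0016) and was lower at 5 h (-1.17 ± 0.21, adjusted p = 3.1e-04, 2.25-fold). Its difference at 48 h was 0.30 ± 0.21 (adjusted p = 0.31). Between 5 and 48 h it rose by 1.46 ± 0.21 (adjusted p = 3.2e-05).

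In NIH/3T3, Notch1 stood at 20.7, 22.4 and 17.5 CPM at 0 h and 25.5, 26.8 and 11.8 CPM at 1 h. It was at 12.2, 12.5 and 8.36 CPM at 2 h, 13.1, 12.0 and 17.7 CPM at 5 h and 77.5, 77.8 and 77.7 CPM at 48 h. The 2 h libraries lay below those at 0 h, the 5 h group overlapped them, and the 48 h libraries were far above every earlier one. The 1 h C library, whose long genes read low, was also low in Notch1. The fall at 2 h (-0.87 ± 0.24, adjusted p = 0.011) was lost without 2 h C (adjusted p = 0.061), and the difference at 5 h was -0.50 ± 0.23 (adjusted p = 0.085). At 48 h Notch1 was 3.86-fold higher (1.95 ± 0.23, adjusted p = 3.7e-06). It rose by 2.45 ± 0.24 (adjusted p = 2.1e-07) between 5 and 48 h, where 2 of 5 members were called, against 65.6% of all genes. The 48 h change differed between the lines (-1.67 ± 0.32, adjusted p = 3.7e-04 for CGR8 minus NIH/3T3). For that difference 3 of 8 members tested were called, against 21.9% of all genes tested.

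For Notch2, NIH/3T3 libraries had 80.3, 74.4 and 71.0 CPM at 0 h, 58.7, 56.8 and 44.3 CPM at 2 h and 64.7, 70.4 and 83.4 CPM at 5 h. At 48 h they had 119, 121 and 112 CPM, above every library at 0 h, and at 1 h they had 89.5, 91.9 and 51.3 CPM, with 1 h C low. The 48 h rise was 0.64 ± 0.17 (adjusted p = 0.0045). The fall at 2 h (-0.50 ± 0.17, adjusted p = 0.032) was small and was lost under 6 of 15 alternatives: with the length trend removed, and without 0 h A (adjusted p = 0.10), 0 h B (0.064), 0 h C (0.057), 2 h B (0.052) or 2 h C (0.15). The difference at 5 h was -0.05 ± 0.17 (adjusted p = 0.83).

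CGR8 cells had Notch2 at 37.1, 34.5 and 37.1 CPM at 0 h, 39.0, 31.6 and 32.6 CPM at 1 h and 22.0, 27.7 and 18.9 CPM at 2 h. The gene went down to 9.28, 18.1 and 18.9 CPM at 5 h and was back at 38.4, 36.4 and 42.9 CPM at 48 h. The 5 h libraries were all below those at 0 h, and the 48 h group overlapped the 0 h group. Notch2 fell at 5 h (-1.23 ± 0.20, adjusted p = 1.4e-04) and rose between 5 and 48 h (1.35 ± 0.20, adjusted p = 4.6e-05). At 48 h it differed from 0 h by 0.11 ± 0.20 (adjusted p = 0.71). Its fall at 2 h (-0.67 ± 0.20, adjusted p = 0.030) was lost without CGR8 0 h A (adjusted p = 0.086), 0 h C (0.080), 2 h A (0.052) or 2 h C (0.15). The 5 h change differed between the lines by -1.10 ± 0.27 (adjusted p = 0.0077).

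Changes of Notch3 with time were tested in CGR8 only, since its 3 counts over the 15 NIH/3T3 libraries did not pass the filter. In CGR8 its levels were 12.3, 11.4 and 10.8 CPM at 0 h, 12.0, 9.80 and 8.96 CPM at 1 h and 5.68, 8.35 and 6.31 CPM at 2 h. They were 2.75, 4.61 and 3.62 CPM at 5 h and 24.6, 16.1 and 21.4 CPM at 48 h. Each library at 5 h was below each at 2 h, and each at 48 h was above each at 0 h. Notch3 fell by 5 h (-1.65 ± 0.21, adjusted p = 1.2e-05, 3.14-fold lower). It was the only member called between 2 and 5 h in CGR8 (-0.90 ± 0.21, adjusted p = 0.0081), where 19.1% of all genes were called, and that call was lost under voom (adjusted p = 0.066) and with the 2 groups fitted alone (0.062). The 48 h level was above that at 0 h (0.85 ± 0.19, adjusted p = 0.0031) and 5.66-fold above that at 5 h (2.50 ± 0.21, adjusted p = 1.7e-07). The fall at 2 h (-0.76 ± 0.19, adjusted p = 0.015) was lost without CGR8 0 h A (adjusted p = 0.060) or 2 h C (0.076).

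**Figure D2:**
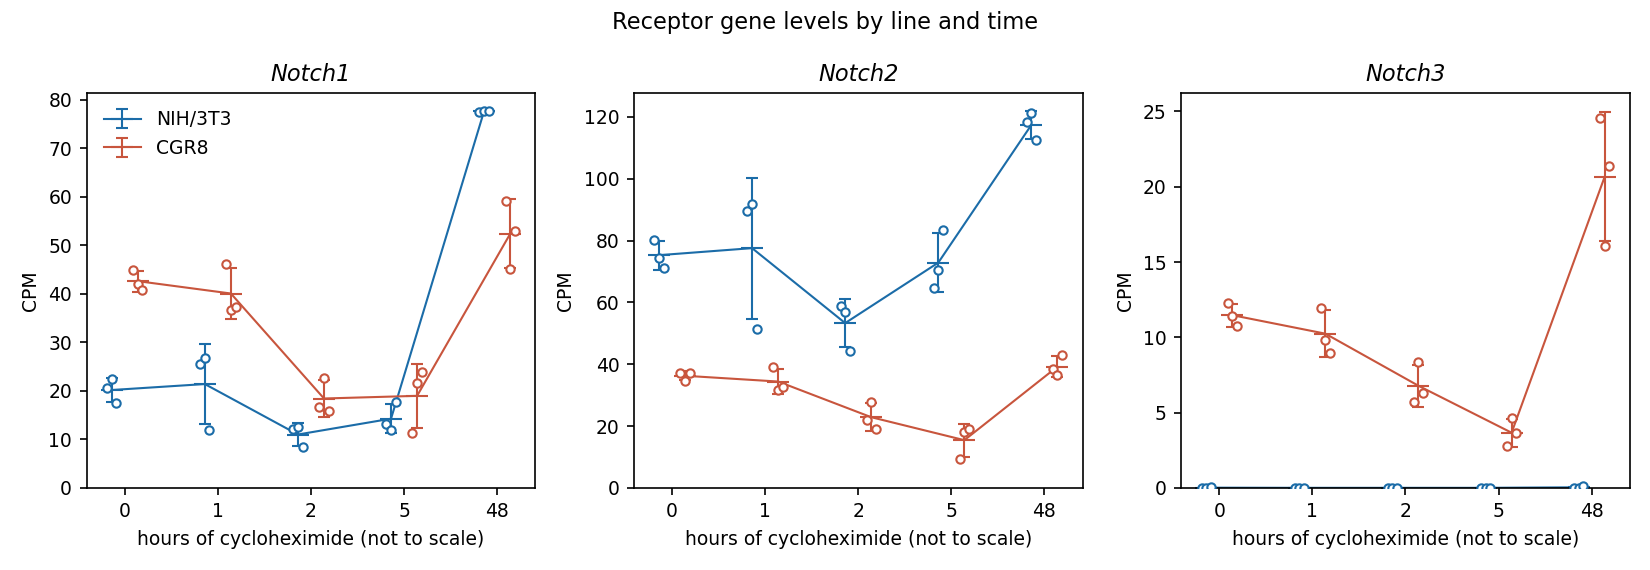
Levels of Notch1, Notch2 and Notch3 in CPM (vertical axes, from 0) against hours of cycloheximide (horizontal axes, not to scale). Open circles are libraries, dashes and bars are mean ± SD (n = 3), with NIH/3T3 in blue and CGR8 in red. The 3 genes are low at 2 and 5 h in CGR8, and the NIH/3T3 Notch1 libraries at 48 h all sit between 77.5 and 77.8 CPM.

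Long genes as a class moved in the direction of the receptor changes called at 2, 5 and 48 h. The median change of genes of at least 8000 bases minus that of genes of at most 2000 bases was -0.51 at 2 h and -0.89 at 5 h in CGR8, with 0.17 at 48 h. In NIH/3T3 it was -0.47 at 2 h, -0.39 at 5 h and 0.50 at 48 h. With each library's length trend removed, the receptor falls in CGR8 at 5 h became smaller: -0.70 ± 0.14 (adjusted p = 5.7e-04) for Notch1, -0.83 ± 0.14 (adjusted p = 1.5e-04) for Notch2 and -1.31 ± 0.17 (adjusted p = 1.7e-05) for Notch3. All 3 remained called. The Notch1 rise in NIH/3T3 at 48 h was then 1.53 ± 0.15 (adjusted p = 3.4e-07), and that of Notch2 was 0.35 ± 0.11 (adjusted p = 0.015). From 5 to 48 h in CGR8, Notch1 then rose by 0.84 ± 0.14 (adjusted p = 8.7e-05), Notch2 by 0.83 ± 0.14 (adjusted p = 1.1e-04) and Notch3 by 2.09 ± 0.17 (adjusted p = 1.1e-07). Notch1 at 2 h in NIH/3T3 became -0.62 ± 0.16 (adjusted p = 0.0068), while Notch2 there was no longer called (-0.29 ± 0.12, adjusted p = 0.062). The rise of Notch2 between 5 and 48 h in NIH/3T3 (0.69 ± 0.17, adjusted p = 0.0019) was lost as well (0.26 ± 0.11, adjusted p = 0.058). Jag1 kept its opposite directions at 2 h, at 0.99 ± 0.11 (adjusted p = 7.4e-06) in NIH/3T3 and -0.89 ± 0.13 (adjusted p = 3.7e-04) in CGR8. NIH/3T3 1 h C and CGR8 5 h A, the 2 libraries with the most negative length offsets of the 30, also had the lowest Notch1 and Notch2 levels of their groups. The receptor falls at 5 h in CGR8 were still called without CGR8 5 h A. In GENCODE M21, Notch1 shares 1068 exonic bases with 0610009E02Rik and Notch3 shares 488 with Gm17276, both on the opposite strand, with at most 29 and 23 counts in any library.

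**Figure D3:**
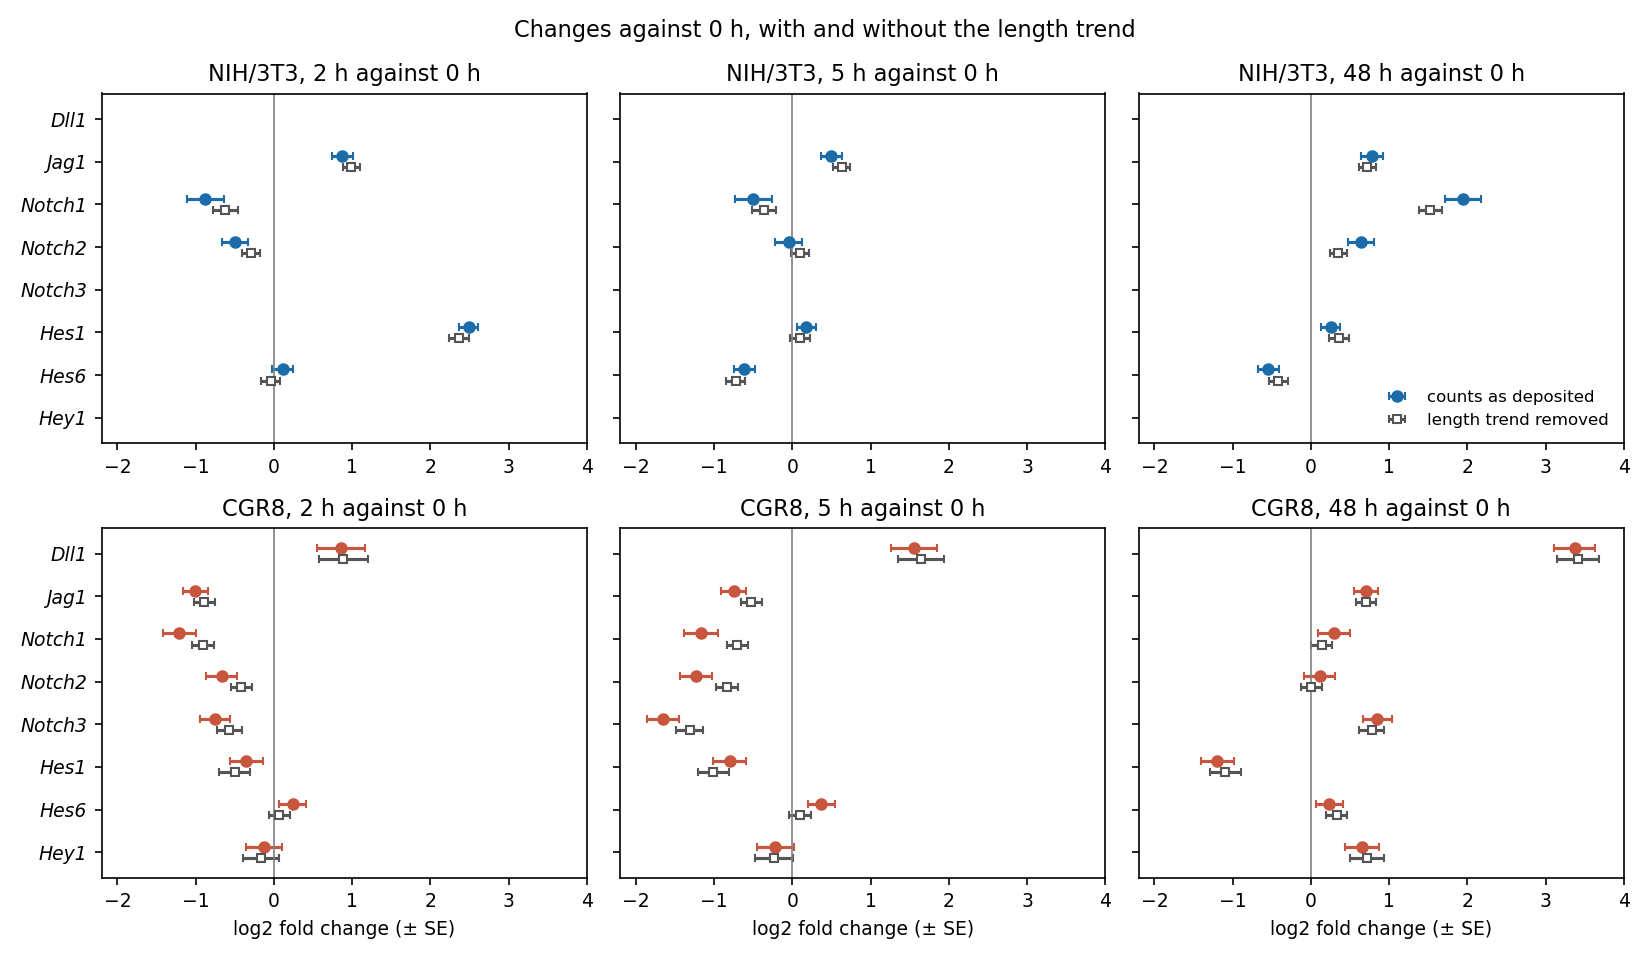
Log2 fold change against 0 h (horizontal axes, ± SE) for each tested member (vertical axes) at 2, 5 and 48 h in NIH/3T3 (top) and CGR8 (bottom). Filled circles use the counts as deposited and open squares have each library's length trend removed. Receptor values that were called move towards 0, while Hes1 in NIH/3T3 stays at 2.37 at 2 h and Dll1 in CGR8 at 3.42 at 48 h.

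Hes1, the best known HES repressor and the target of its own protein, gave the largest change of all members tested at 2 h, a rise in NIH/3T3 that was not seen in CGR8. NIH/3T3 libraries stood at 11.9, 11.4 and 9.93 CPM at 0 h and 17.0, 22.0 and 18.6 CPM at 1 h. They reached 67.6, 59.7 and 59.3 CPM at 2 h, then 12.4, 14.0 and 11.2 CPM at 5 h and 12.4, 13.4 and 13.8 CPM at 48 h. The 2 h libraries lay above all others with a wide gap, and those at 5 h overlapped the 0 h group. Hes1 rose 1.74-fold at 1 h (0.80 ± 0.12, adjusted p = 0.0017) and 5.63-fold at 2 h (2.49 ± 0.12, adjusted p = 7.8e-10). It rose from 1 to 2 h by 1.70 ± 0.11 (adjusted p = 3.0e-07), an interval in which 3 of 5 members were called, against 17.4% of all genes. The other calls in that interval, falls of Notch1 and Notch2, had overlapping groups. They were lost under 4 and 6 of 15 alternatives. Hes1 fell from 2 to 5 h by -2.31 ± 0.12 (adjusted p = 7.4e-10), and 2 of 5 members were called there, against 23.1% of all genes. The difference from 0 h was 0.18 ± 0.12 (adjusted p = 0.23) at 5 h and 0.25 ± 0.12 (adjusted p = 0.089) at 48 h. All 48 h libraries lay above all at 0 h. The 48 h difference was called under 3 of 15 alternatives: library size alone (adjusted p = 0.031), the length trend removed (0.024) and the 2 groups fitted alone (0.023). The 1 h call was lost with the 2 groups fitted alone (adjusted p = 0.13), while the 2 h call held under all 15 alternatives, where the log2 change ranged from 2.37 to 2.54.

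CGR8 cells started with 2.53-fold more Hes1 RNA and lost it slowly. Their libraries were at 27.2, 32.6 and 26.8 CPM at 0 h, 25.1, 28.3 and 26.3 CPM at 1 h and 26.9, 19.9 and 21.1 CPM at 2 h. They were at 16.0, 18.01 and 15.8 CPM at 5 h and 18.8, 10.5 and 8.52 CPM at 48 h. The 5 h and 48 h libraries were below all those at 0 h, and 48 h A stood apart from the other two of its group. The change was -0.12 ± 0.21 (adjusted p = 0.87) at 1 h and -0.35 ± 0.21 (adjusted p = 0.24) at 2 h, so that a rise of the NIH/3T3 size lies outside the 2 SE interval at 2 h (-0.77 to 0.06). Hes1 fell by 5 h (-0.80 ± 0.21, adjusted p = 0.0048) and was 2.29-fold lower at 48 h (-1.19 ± 0.21, adjusted p = 6.0e-04). Its change between 5 and 48 h was -0.39 ± 0.21 (adjusted p = 0.13), and these groups overlapped. That change was called under voom (adjusted p = 0.0048) and without CGR8 48 h A (7.6e-04). With the length trend removed it was -0.09 ± 0.20 (adjusted p = 0.74). In CGR8 2 of 8 members, Jag1 and Notch1, were called between 1 and 2 h, against 6.59% of all genes, and Hes1 was not among them (-0.23 ± 0.21, adjusted p = 0.48). The calls of Jag1 and Notch1 were lost without CGR8 1 h A (adjusted p = 0.057 and 0.10) or 2 h C (0.060 and 0.11).

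The Hes1 change in CGR8 minus that in NIH/3T3 was -2.79 ± 0.25 (adjusted p = 1.6e-08) at 2 h and -1.46 ± 0.26 (adjusted p = 1.2e-04) at 48 h. At 5 h it was -0.89 ± 0.26 (adjusted p = 0.020), a call lost without NIH/3T3 0 h C (adjusted p = 0.062) or NIH/3T3 5 h B (0.061). At 1 h it was -0.89 ± 0.25 (adjusted p = 0.42). No member was called for the line difference at 1 h by edgeR or by DESeq2, against 0.16% of all genes, while 2 members had an unadjusted p under 0.05. Voom with sample quality weights called both, Hes1 with adjusted p = 0.030. With the length trend removed the Hes1 line difference at 2 h was -2.96 ± 0.25 (adjusted p = 1.7e-09).

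**Figure D4:**
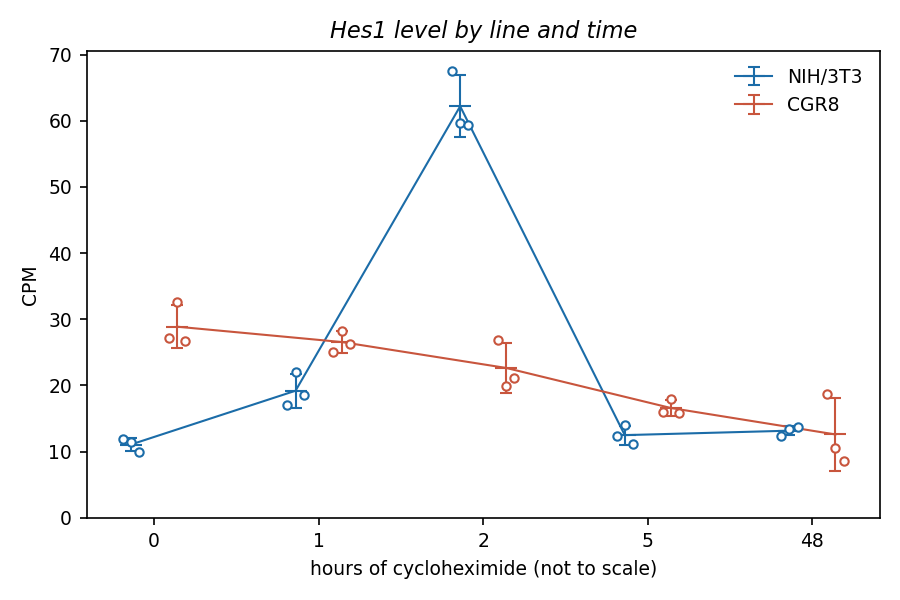
Hes1 level in CPM (vertical axis, from 0) against hours of cycloheximide (horizontal axis, not to scale) in NIH/3T3 (blue) and CGR8 (red). Open circles are libraries, dashes and bars are mean ± SD (n = 3). The NIH/3T3 libraries at 2 h lie between 59.3 and 67.6 CPM, and CGR8 runs downward from 28.9 ± 3.24 CPM.

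Hes6, whose product is known to counteract HES1, fell late in NIH/3T3 and was not called in CGR8. The NIH/3T3 libraries were at 11.9, 14.1 and 12.4 CPM at 0 h, 17.4, 11.6 and 12.8 CPM at 2 h, 7.83, 8.76 and 8.56 CPM at 5 h and 9.25, 8.52 and 8.60 CPM at 48 h. Every library at 5 and 48 h was below every one at 0 h. Hes6 fell by 5 h (-0.61 ± 0.14, adjusted p = 0.0017) and was lower at 48 h (-0.54 ± 0.14, adjusted p = 0.0039). From 2 to 5 h it fell by -0.73 ± 0.14 (adjusted p = 0.0014). In CGR8 its mean was 6.03 ± 0.413 CPM at 0 h, 7.80 ± 1.71 CPM at 5 h and 7.09 ± 0.618 CPM at 48 h. The CGR8 change was 0.37 ± 0.17 (adjusted p = 0.080) at 5 h, where the groups overlapped, and 0.24 ± 0.17 (adjusted p = 0.33) at 48 h. The difference between the lines passed the test at 5 h (1.07 ± 0.22, adjusted p = 0.0016) and at 48 h (0.76 ± 0.22, adjusted p = 0.014).

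Hey1, a HEY repressor gene, was at low counts in CGR8: 40, 29 and 24 at 0 h, 23, 22 and 23 at 5 h and 46, 40 and 56 at 48 h. The 48 h libraries were above all those at 0 and 5 h. It rose between 5 and 48 h (0.87 ± 0.23, adjusted p = 0.0040). Its rise against 0 h (0.65 ± 0.22, adjusted p = 0.036) was lost under 8 of 14 alternatives, which include DESeq2 (adjusted p = 0.063) and leaving out CGR8 0 h A (0.053), 0 h B (0.076), 0 h C (0.11) or 48 h C (0.19). The 15 NIH/3T3 libraries held 15 Hey1 counts in all.

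Around these members, 69 further genes of the pathway were found by symbol in 10 lists, of which 49 passed the filter in NIH/3T3 and 56 in CGR8. In NIH/3T3, 5 rose and 20 fell at 2 h, 6 rose and 23 fell at 5 h, and 25 rose and 6 fell at 48 h. The medians of the tested list genes were -0.22, -0.26 and 0.32 at these times, against -0.01, -0.01 and -0.01 over all genes. The share of tested list genes called was 51.0%, 59.2% and 63.3%, against 35.0%, 51.0% and 52.3% of all genes. In CGR8, 2 rose and 18 fell at 2 h, 3 rose and 32 fell at 5 h, and 8 rose and 8 fell at 48 h. Their medians were -0.34, -0.59 and -0.01, against 0.01, -0.01 and -0.0027 over all genes. The share called was 35.7%, 62.5% and 28.6%, against 19.9%, 52.1% and 27.8% of all genes, so that at 48 h it was near the background. Long genes were shifted against short ones by -0.47, -0.39 and 0.50 in NIH/3T3 and by -0.51, -0.89 and 0.17 in CGR8 at these times. With each library's length trend removed, 24, 30 and 31 list genes were called in either direction in NIH/3T3, in place of 25, 29 and 31, and 18, 32 and 20 in CGR8, in place of 20, 35 and 16. The direction of these calls with the trend removed was not counted. No list gene was called at 1 h in CGR8 by edgeR, and 2 were in NIH/3T3, Id1 and Id3.

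**Figure D5:**
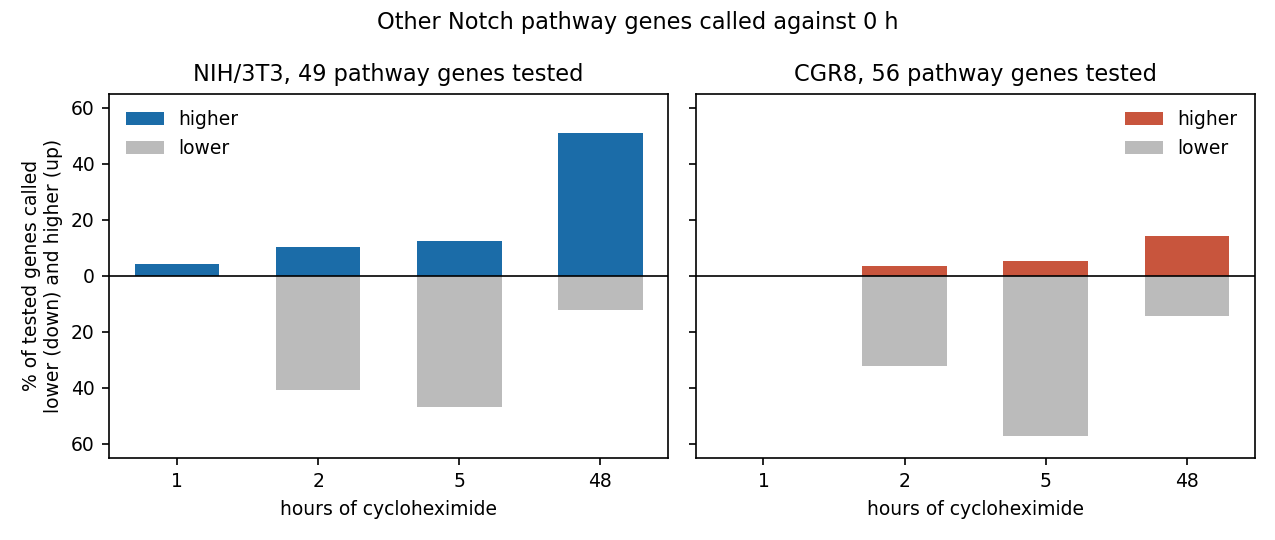
Share of the other Notch pathway genes called against 0 h, in percent of those tested (vertical axes, higher upward and lower downward), at 1, 2, 5 and 48 h (horizontal axes) in NIH/3T3 and CGR8. Falls outnumber rises at 2 and 5 h in both lines, at 48 h NIH/3T3 has 25 rises and 6 falls, and CGR8 has 8 of each.

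Of the 5 other receptor and ligand genes tested in CGR8, 2 were called at 5 h, against 52.1% of all genes called in either direction. These were Notch4 and Jag2, which fell, as the member receptors and Jag1 did. Notch4, a further receptor, fell from 11.9 ± 1.22 CPM to 3.35 ± 0.352 CPM at 5 h (-1.83 ± 0.14, adjusted p = 2.0e-07) and was at 5.75 ± 0.237 CPM at 48 h (-1.05 ± 0.13, adjusted p = 2.4e-05). Jag2, a ligand gene, was at 7.83 ± 1.58 CPM at 0 h, 2.80 ± 0.537 CPM at 5 h (-1.48 ± 0.18, adjusted p = 8.1e-06) and 21.9 ± 0.759 CPM at 48 h (1.48 ± 0.16, adjusted p = 6.5e-06). At 48 h Notch4 was thus lower than at 0 h, unlike Notch3, which had risen. Of the other ligand genes tested in CGR8, Dlk1 was lower at 48 h (-2.12 ± 0.60, adjusted p = 0.014), with at most 12 counts in any library, and Dll3 was at 1.72 ± 0.325 CPM at 0 h and 1.38 ± 0.213 CPM at 48 h (-0.30 ± 0.22, adjusted p = 0.33). Dlk1 passed the low-count filter through its early times, so its fall was partly a condition of being tested. In NIH/3T3, Notch4 and Jag2 fell at 2 h and had at most 71 and 15 counts in any library. There Jag2 passed the low-count filter through its 0 h and 48 h libraries, so its fall was partly a condition of being tested.

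Among genes for the processing and cleavage of the receptors, Furin, Adam17, Ncstn and Aph1a fell at 5 h in each line. Furin, which encodes a proprotein convertase, changed by -0.70 ± 0.11 (adjusted p = 6.7e-05) in NIH/3T3 and by -0.51 ± 0.16 (adjusted p = 0.014) in CGR8. Adam17, a membrane sheddase gene, changed by -0.49 ± 0.08 (adjusted p = 1.2e-04) in NIH/3T3 and by -0.82 ± 0.13 (adjusted p = 1.2e-04) in CGR8. Of 10 turnover and inhibitor genes, 6 fell and Itch rose in NIH/3T3, and 8 fell in CGR8, against 51.0% and 52.1% of all genes called in either direction. Snw1, a co-activator gene that is also part of the splicing machinery, rose in CGR8 (0.66 ± 0.09, adjusted p = 3.0e-05), as did Hdac1, a deacetylase gene (0.65 ± 0.11, adjusted p = 1.2e-04). Snw1 was called higher at 5 h in NIH/3T3 as well. L3mbtl3, a co-repressor gene, was called lower at 5 h in both lines, with -0.98 ± 0.11 (adjusted p = 4.1e-06) in NIH/3T3. Lfng, which encodes a glycosyltransferase that modifies Notch receptors, rose in NIH/3T3 at 5 h from 6.85 ± 0.731 to 14.4 ± 0.332 CPM (1.06 ± 0.12, adjusted p = 4.0e-06).

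At 48 h in NIH/3T3, 5 of 8 genes of the nuclear activation complex rose, Maml1, Maml2 and Maml3 among them, and Kat2a fell, against 52.3% of all genes called in either direction. Rbpj itself was at 62.1 ± 5.74 CPM at 0 h and 71.9 ± 1.34 CPM at 48 h (0.21 ± 0.10, adjusted p = 0.079). Of 9 co-repressor genes 5 rose and 2 fell, against the same 52.3%. Tle2, a Groucho-family co-repressor gene, rose from 2.75 ± 0.0915 to 12.2 ± 0.420 CPM (2.15 ± 0.23, adjusted p = 1.7e-06), and Hdac1 fell (-0.64 ± 0.09, adjusted p = 1.8e-05). Numbl, a gene of the Numb family of Notch inhibitors, fell too (-0.67 ± 0.10, adjusted p = 2.9e-05), and was called lower at 48 h in CGR8 as well. In CGR8, Neurl1a, a ligand ubiquitin ligase gene, fell at 48 h (-0.90 ± 0.14, adjusted p = 2.6e-04).

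The ID genes, whose products lack a DNA-binding domain and bind helix-loop-helix partners, rose with Hes1 in NIH/3T3. At 2 h all 4 were called higher, against 35.0% of all genes called in either direction, with Id2 at 1.54 ± 0.11 (adjusted p = 7.9e-08) and Id3 at 1.29 ± 0.10 (adjusted p = 7.7e-08). At 5 h Id1 was lower (-1.07 ± 0.10, adjusted p = 7.0e-07) and so was Id3, while Id2 stayed higher (0.74 ± 0.11, adjusted p = 6.1e-05). All 4 were higher at 48 h (52.3% of all genes), when Hes1 was not called, and Id2 then stood at 104 ± 3.30 CPM against 32.6 ± 1.28 CPM at 0 h (1.67 ± 0.11, adjusted p = 1.5e-08). In CGR8 at 2 h Id3 rose (0.89 ± 0.13, adjusted p = 4.0e-04) and Id1 fell (-1.86 ± 0.23, adjusted p = 1.0e-04). At 48 h in CGR8 Id1 (-0.65 ± 0.21, adjusted p = 0.032) and Id4 (-0.85 ± 0.25, adjusted p = 0.019) were lower, and Id2 and Id3 were not called.

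Of 6 proneural genes that HES factors are known to repress, 0 passed the filter in NIH/3T3 and 3 in CGR8, and all 3 were higher in CGR8 at 48 h, against 27.8% of all genes called in either direction. Neurod1, which drives neuronal differentiation, had 1.57, 0.888 and 1.09 CPM at 0 h and 6.09, 5.56 and 6.30 CPM at 48 h. The groups did not overlap (2.31 ± 0.23, adjusted p = 2.7e-06). Before that it was lower, at -1.55 ± 0.30 (adjusted p = 0.0027) at 2 h. Neurog3 (2.14 ± 0.49, adjusted p = 0.0040) and Atoh1 (1.59 ± 0.40, adjusted p = 0.0072) were at low levels, with 48 h means of 0.908 ± 0.322 and 1.15 ± 0.313 CPM, and were named after their values were seen. Neurog3 passed the low-count filter through its later times, so its rise, and with it the count of 3, was partly a condition of being tested. Whether Atoh1, also at low levels, passed in the same way was not tested. The neural progenitor marker Nes moved in the same direction in CGR8, from 11.2 to 13.8 CPM at 0 h to 19.4 to 21.2 CPM at 48 h. The 0 h and 48 h ranges of the neural markers Sox1 (2.82 to 3.95 and 2.53 to 4.29 CPM) and Pax6 (1.96 to 3.18 and 2.54 to 5.75 CPM) overlapped. Primitive endoderm markers summed to 1.96 to 2.66 CPM at 0 h and 3.95 to 4.66 CPM at 48 h. Of these, Gata4 lay between 1.139 and 1.375 CPM at 0 h and between 2.971 and 3.692 CPM at 48 h. The 0 h and 48 h ranges of Gata6, Sox17 and Pdgfra overlapped. The part of these markers in the Dll1, Hes1 and proneural results was not tested. The embryonic stem cell markers were at 4433 to 4563 CPM in sum at 0 h and 4772 to 5346 CPM at 48 h. They did not move as 1: at 48 h Pou5f1, Nanog and Zfp42 lay above their 0 h ranges, and Tdgf1 and Esrrb overlapped theirs. Dppa5a lay below, at 523.8 to 694.2 CPM against 845.8 to 1036 CPM at 0 h.

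No other gene of the HES and HEY family (Hes2, Hes3, Hes5, Hes7, Hey2 and Helt) passed the filter in either line. Hes5, a standard Notch target in neural cells, had at most 1 count in any library. Nrarp, a Notch-induced inhibitor gene, had 0 counts in every NIH/3T3 library and at most 19 in CGR8.

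The genes whose time courses were most like those of the members were found by Pearson correlation over the 10 group means, each line centred on its own mean, among 8158 genes. For Hes1 these were Cited2 (r = 0.93), Dusp1 (0.89), Csrnp1 (0.89), Trib1 (0.88) and Dusp6 (0.88), most of them known as immediate early or feedback genes. Cited2 rose from 153.5 CPM at 0 h to 480.9 CPM at 2 h in NIH/3T3 and was at 24.3 CPM at 0 h and 25.3 CPM at 2 h in CGR8. For Notch1 they were Kmt2d and Dync1h1 (both r = 0.99 or above), whose exons span 19931 and 15658 bases. For Notch2 they were Akap13 and Jcad (both r = 0.99), with 20914 and 7311 exonic bases. Jag1 was followed by Ccnt1 (r = 0.95) and Nr3c1 (0.94). Hes6 was followed by 2 mitotic genes, Cdc25c (r = 0.97) and Cdca8 (0.95). The points share their libraries and depth, so these values describe likeness only.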

How the data were processed

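RNA was measured in 30 libraries of 2 mouse cell lines at 5 times of cycloheximide. The kit for library preparation was stranded and ligation-based, for mRNA, and RNA came from a column kit, per the labels' protocols. The authors deposited 1 table of raw read counts per gene, with 57186 gene rows. Whole numbers with unequal column totals show that these are counts. STAR, DESeq2 and GRCm39 are named in the submitters' processing notes, without versions or roles. The counting tool, its use of strand and the annotation release are not given in the sources used here.

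Libraries were grouped by their labels, and all 30 columns were used. Symbols, exon lengths and overlaps came from GENCODE M21 on GRCm38, another build, so no gene coordinates are given. Without version suffixes, 90.72% of rows had a symbol, as did 69 of 70 pathway symbols.

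Counts were scaled by TMM, filtered (filterByExpr, minimum count 10, total 15) and tested with edgeR 4.0.16 quasi-likelihood fits in R 4.3.3: 1 model per line (13941 genes in NIH/3T3, 15933 in CGR8) and 1 model of all libraries (17549 genes) for differences between the lines. P-values were adjusted by Benjamini-Hochberg over all genes tested. The procedure was tested on simulated data. Alternatives used RLE or library-size scaling, DESeq2 1.42.0, other filters, limma 3.58.1 voom with sample quality weights, a replicate block, only the groups compared, each library left out, and offsets that remove a lowess trend on exon length, the last chosen after seeing the data. Counting error is largest for genes with few counts.

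The 9 members and the pathway lists were chosen with earlier results of these data known. All members are named. Pathway genes named at 5 and 48 h are up to 2 with the largest rise and 2 with the largest fall per line, among called genes without overlap between groups whose higher group averaged 5 CPM or more; those named at other times, or beyond these, serve to describe a list and were chosen after their values were seen. Some items of the pathway and marker lists are not reported here.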

Additional observations from a re-analysis of the deposited data

Results flagged for a closer look

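These results stood out because the change in CGR8 and the change in NIH/3T3 at the same time differed by a test of the difference itself (edgeR quasi-likelihood interaction, CGR8 minus NIH/3T3, adjusted over all genes tested). They are given as values, with 3 libraries in each of the 4 groups.

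For Hes1 the difference was -2.79 ± 0.25 (adjusted p = 1.6e-08) at 2 h, from -0.35 in CGR8 and 2.49 in NIH/3T3. It was -0.89 ± 0.26 (adjusted p = 0.020) at 5 h, from -0.80 and 0.18, and -1.46 ± 0.26 (adjusted p = 1.2e-04) at 48 h, from -1.19 and 0.25. For Jag1 it was -1.83 ± 0.22 (adjusted p = 1.9e-06) at 2 h, from -1.0035 in CGR8 and 0.88 in NIH/3T3, and -1.16 ± 0.22 (adjusted p = 4.5e-04) at 5 h, from -0.75 and 0.50. Jag1 was thus called in opposite directions in the 2 lines at both times.

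Notch2 differed at 5 h by -1.10 ± 0.27 (adjusted p = 0.0077), from -1.23 in CGR8 and -0.05 in NIH/3T3. Notch1 differed at 48 h by -1.67 ± 0.32 (adjusted p = 3.7e-04), from 0.30 and 1.95. The Hes6 difference was 1.07 ± 0.22 (adjusted p = 0.0016) at 5 h, from 0.37 and -0.61, and 0.76 ± 0.22 (adjusted p = 0.014) at 48 h, from 0.24 and -0.54.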

How the results depend on the processing

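No value of a member that was called changed sign under any alternative run. Of 816 values with 1 library left out, 33 lost their call and 10 gained one, and of 1030 values under the other alternatives 14 lost it and 48 gained it. The number of members called between 2 and 5 h in NIH/3T3 rose from 2 to 4 under DESeq2, without a filter, with the replicate block, with the length trend removed and with the groups compared alone, and to 5 under voom. Between 2 and 5 h in CGR8 it went from 1 to 2 with library size alone, DESeq2 or the length trend removed, to 3 without a filter, and to 0 under voom or with the groups compared alone. Between 1 and 2 h in CGR8 it rose from 2 to 4 under DESeq2 and without a filter. At 1 h in NIH/3T3 it fell from 2 to 1 with library size alone and to 0 with the groups compared alone, and between 1 and 2 h in NIH/3T3 from 3 to 1 with the groups compared alone. At 48 h in CGR8 it fell from 5 to 3 with a minimum mean of 5 CPM, a filter that leaves Dll1 and Hey1 untested. For the line difference it rose at 1 h from 0 to 1 without a filter and to 2 under voom, and at 48 h from 3 to 5 under voom. Other than for that filter, the cause was not tested. With 1 library left out, the counts ranged from 1 to 2 at 1 h, 2 to 4 at 2 h and 1 to 3 between 1 and 2 h in NIH/3T3. In CGR8 they ranged from 2 to 4 at 2 h, 0 to 4 between 1 and 2 h and 1 to 2 between 2 and 5 h, and for the line difference at 1 h from 0 to 1. 

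The replicate letters did not pair the libraries: in 0 of 20 pairs of groups within a line did all 3 same-letter correlations of deviations exceed 0.1 (they ranged from -0.58 to 0.42). With the letter as a replicate block, the Hey1 rise at 48 h in CGR8 was 0.65 (adjusted p = 0.052). Depth limits Dll1, Hey1 and Heyl most, and for Heyl no change was detectable at this depth.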
